A study of Mus musculus with 2 samples.

Results

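The insulin receptor pathway and genes linked to its FOXO transcription factors were followed in pancreatic islets, small endocrine organs inside the pancreas, of mice with and without extra Brsk2. They comprised 10 genes of the 54532 in the gene count table, matched by gene name. Insr, Igf1r, Irs1, Irs2, Foxo1 and Foxo3 were taken as the upstream pathway. Depp1, Klhl24, Pik3ip1 and Txnip were chosen by their scaled read counts, which were higher in the transgenic library, so their direction is a description and not a finding. All 10 had at least 10 reads over both libraries, as did 17709 of all genes.

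RNA was sequenced from islets of male C57BL/6 mice aged 10 to 12 weeks. One group was wild type and the other was a Brsk2 transgenic, with the sample title Line20, that over-expresses this AMPK-related protein kinase. Doxycycline, which induces tetracycline-controlled transgenes, was given to both groups in water over 4 days when they were 8 to 10 weeks old. The sources used here give neither the promoter that drives the transgene nor the number of mice behind a library. Each group had 1 library, and the differences below therefore have no check against replicate animals.

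The count table assigned 20389499 reads to genes in the wild-type and 16832312 in the transgenic library. Levels are in CPM, reads scaled to a common library size by TMM (trimmed mean of M values), and ratios are transgenic over wild type with a 95% interval in square brackets that covers counting error only. The words called higher and called lower stand for a ratio past 1.5-fold in that direction whose interval did not hold 1. By this rule 7.78% of measured genes were higher and 5.89% lower; with a minimum of 100 reads, which all 10 genes met, the shares were 5.67% and 5.66%. Brsk2 itself was at 36.4 CPM without and 94.3 CPM with the transgene. The count does not tell reads of the transgene from those of the endogenous gene.

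Insulin and insulin-like growth factors bind the receptor tyrosine kinases encoded by Insr and Igf1r, which phosphorylate the docking proteins IRS1 and IRS2. These recruit phosphoinositide 3-kinase (PI3K), whose lipid product brings the kinase AKT to the membrane, and AKT phosphorylates FOXO factors so that they leave the nucleus. When signalling is low, FOXO factors stay in the nucleus and switch on genes of growth arrest, stress defence and autophagy, together with genes that feed back on the pathway. In beta cells IRS2 and FOXO1 are known for their part in cell mass and in the maintenance of beta cell identity.

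RefSeq promoter entries on build GRCm38.p6 were matched for 8 of the 10 genes, namely Irs1, Irs2, Igf1r, Foxo1, Foxo3, Depp1, Pik3ip1 and Txnip. The 250 bases before each start site were searched on both strands for GTAAACA, the main recognition letters of forkhead factors, for the common variant GTAAATA, and for a further variant written ATAAACA, and at least 1 of them was found in 9.45% of 32851 promoter windows. Of the 4 picked genes 3 had an entry, and 2 of these 3 held a match. The picked genes were taken as FOXO-linked, so no contrast with other windows is drawn from these 3. The windows of Depp1 (chr6:116650434-116650683, plus strand) and Txnip (chr3:96557707-96557956, plus strand) are shown because they carry these matches, with the forkhead letters in capitals and, in Txnip, also both arms of a carbohydrate response element.
Depp1: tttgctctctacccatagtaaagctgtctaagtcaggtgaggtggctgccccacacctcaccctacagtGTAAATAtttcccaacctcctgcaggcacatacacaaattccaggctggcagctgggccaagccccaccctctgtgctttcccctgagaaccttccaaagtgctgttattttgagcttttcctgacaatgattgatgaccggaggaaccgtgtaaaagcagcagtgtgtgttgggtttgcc
Txnip: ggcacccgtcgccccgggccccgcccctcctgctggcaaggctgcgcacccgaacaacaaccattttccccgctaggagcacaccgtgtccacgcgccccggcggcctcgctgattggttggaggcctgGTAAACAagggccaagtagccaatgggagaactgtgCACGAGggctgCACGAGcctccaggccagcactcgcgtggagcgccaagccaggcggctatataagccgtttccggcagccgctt
The match in Txnip lay 115 to 121 bases upstream of the start site and that in Depp1 175 to 181 bases upstream. GTAAACA was found in 3.17% and GTAAATA in 2.73% of all windows. The gene start in the count table lies 75 bases before the RefSeq start of Depp1, so the end of its window is transcribed in that annotation. For Pik3ip1 it lies 330 bases before the RefSeq start, so the whole window is transcribed there. The carbohydrate response element, searched as a first arm CACGNG, a spacer of 5 bases and then a second arm CANGNG, lay 69 to 85 bases upstream in Txnip and was found in 0.192% of windows. No forkhead letters were found in the windows of the other 6 matched genes, which says only that these letters are not there.

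Irs1 and Irs2 each held the E-box letters CACGTG, found in 6.02% of windows. The 40 bases around it are shown, for Irs1 from chr1:82291527-82291566 and for Irs2 from chr8:11008946-11008985, both on the minus strand, because both docking protein genes hold the same letters while their ratios differed. Capitals mark the E-box.
Irs1: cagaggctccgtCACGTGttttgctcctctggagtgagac
Irs2: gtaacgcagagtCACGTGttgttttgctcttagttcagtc
The E-box lay 110 to 115 bases upstream of the start site in Irs1 and 39 to 44 bases upstream in Irs2. These distances are from the RefSeq starts; the start of Irs2 in the count table lies 471 bases farther downstream. These matches describe the letters and are not evidence of binding.

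The receptors were slightly higher or near equal in the transgenic library, and neither was called. Insr, the insulin receptor (ENSMUSG00000005534, chromosome 8, 3122061 to 3279617, minus strand), had 700 wild-type and 763 transgenic reads, or 34.8 and 44.7 CPM. Its ratio was 1.29 [1.16, 1.43], above 1 but within 1.5-fold. Igf1r, the receptor of insulin-like growth factor 1 (ENSMUSG00000005533, chromosome 7, 67952827 to 68233668, plus strand), had 1003 and 920 reads, or 49.9 and 53.9 CPM. The interval of its ratio, 1.08 [0.988, 1.18], held 1. Of the reads of both receptors together, Insr took 41.1% in the wild-type library (exact binomial interval 38.8 to 43.5) and 45.3% in the transgenic one (42.9 to 47.8). This share needs no scaling between libraries. Its intervals overlapped, which does not show that the 2 shares were equal.

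**Figure D1:**
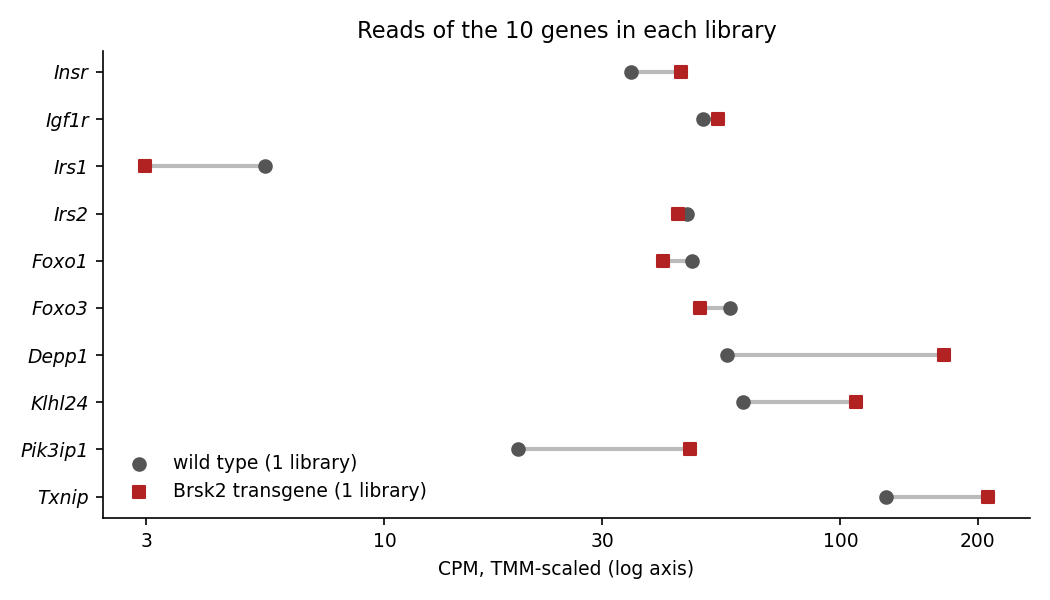
Levels of the 10 genes in CPM on a log axis, with the wild-type library as grey circles, the transgenic library as red squares and 1 library per group. Depp1, Klhl24, Pik3ip1 and Txnip sit clearly to the right in the transgenic library, Irs1 sits to the left, and the other 5 genes lie close together.

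The docking proteins differed from each other: Irs1 was lower in the transgenic library and Irs2 near equal. Irs1 (ENSMUSG00000055980, chromosome 1, 82233101 to 82291416, minus strand) had 110 and 51 reads, or 5.47 and 2.99 CPM. Its ratio of 0.547 [0.384, 0.769] passed the rule, on the fewest reads among the 10 genes, and its interval reached into the range within 1.5-fold. An annotated gene on the opposite strand, Gm9747, shares 30.9% of the exon bases of Irs1 and had 0 reads in both libraries. No source used here says whether counting kept strand, so the 0 does not show that the overlap left the Irs1 count unaffected. Irs2 (ENSMUSG00000038894, chromosome 8, 10984681 to 11008458, minus strand) had 928 and 752 reads, or 46.1 and 44.1 CPM. Its ratio was 0.956 [0.867, 1.05], an interval that held 1. Irs1 took 10.6% of the reads of both docking proteins in the wild-type library (8.79 to 12.6) and 6.35% in the transgenic one (4.77 to 8.27), and these exact binomial intervals did not overlap. Per base of gene length, Irs2 had 12.2 times the reads of Irs1 in the wild-type library and 21.3 times in the transgenic one, so Irs2 was the more abundant transcript of the pair in both. Among the 6 genes that were not picked, Irs1 was the only call, with 0 higher and 1 lower beside 7.78% and 5.89% of all measured genes. The median log2 ratio of these 6 was -0.14, beside 0.01 over all measured genes.

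The FOXO factors themselves were slightly lower in the transgenic library, by nearly the same proportion, and neither was called. Foxo1 (ENSMUSG00000044167, chromosome 3, 52268336 to 52353221, plus strand) had 952 and 697 reads, or 47.3 and 40.9 CPM, a ratio of 0.864 [0.782, 0.953]. Foxo3 (ENSMUSG00000048756, chromosome 10, 42181841 to 42276755, minus strand) had 1152 and 840 reads, or 57.3 and 49.2 CPM, a ratio of 0.860 [0.786, 0.941]. Both intervals lay below 1 and within 1.5-fold. Foxo1 took 45.2% of the reads of the pair in the wild-type library (43.1 to 47.4) and 45.3% in the transgenic one (42.8 to 47.9), so the balance between them differed by less than the counting error. RNA levels carry no information on the phosphorylation or the location of the proteins.

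The 4 picked genes were higher in the transgenic library, which is what they were picked for, by 1.67-fold to 2.98-fold. Depp1 (ENSMUSG00000048489, chromosome 6, 116650609 to 116652794, plus strand), a FOXO target described in the count table as an autophagy regulator, had 1137 and 2877 reads, or 56.5 and 168.7 CPM. Its ratio of 2.98 [2.79, 3.20] was the largest of the 10. Pik3ip1 (ENSMUSG00000034614, chromosome 11, 3330401 to 3342971, plus strand) encodes a membrane protein that binds the catalytic subunit of PI3K and restrains it. It had 394 and 799 reads, or 19.6 and 46.8 CPM, a ratio of 2.39 [2.12, 2.71]. Klhl24 (ENSMUSG00000062901, chromosome 16, 20097542 to 20129221, plus strand), a kelch protein that selects substrates for a cullin ubiquitin ligase, had 1228 and 1844 reads, or 61.0 and 108.1 CPM, a ratio of 1.77 [1.65, 1.91]. Txnip (ENSMUSG00000038393, chromosome 3, 96557957 to 96561883, plus strand) encodes an arrestin-domain protein that binds thioredoxin and limits glucose uptake, and in beta cells it is strongly induced by glucose. It had 2539 and 3589 reads, or 126.2 and 210.4 CPM, a ratio of 1.67 [1.58, 1.75]. Txnip was nearest to the 1.5-fold bound among the 4, and Insr was the nearest below it among the other 6. The antisense gene Gm15441 shares 19.4% of the exon bases of Txnip and had 26 and 47 reads; no source used here says whether counting kept strand, so reads of the pair cannot be told apart.

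In the authors' deposited table of 108 genes listed as different, Depp1 was the only one of the 10 genes. There it had normalized counts of 1046 in the wild-type and 3126 in the transgenic library, a log2 fold change of 1.58 and an adjusted p-value of 0.0419 in the authors' deposited table. That log2 fold change was close to the smallest size of 1.57 in the authors' deposited table, and with 1 library per group the adjusted p-value does not measure the spread between animals.

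**Figure D2:**
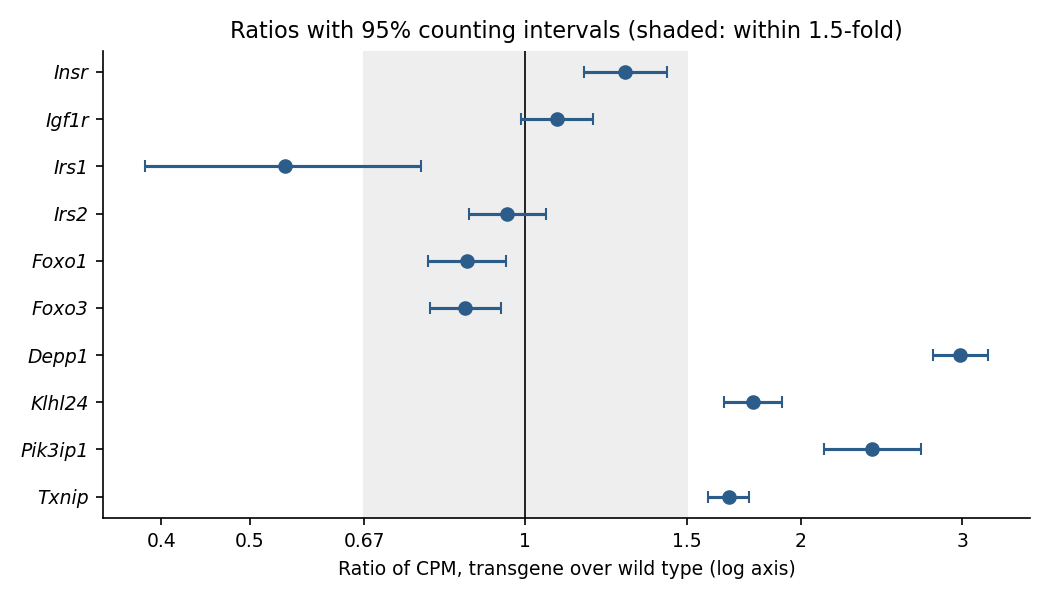
Ratios of CPM, transgenic over wild type, on a log axis, with bars for the 95% counting interval and shading for the range within 1.5-fold. The 4 picked genes lie wholly above the shading, from 1.67 for Txnip to 2.98 for Depp1, and Irs1 lies at 0.547 with an interval that enters the shading.

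Per length of the gene, given as RPKM (CPM per kilobase), the order of the 10 genes differed between the libraries. In the wild-type library Depp1, at 41.6 RPKM, and Txnip, at 40.4 RPKM, were the most abundant and their Poisson counting intervals overlapped. They were followed by Foxo3 at 7.56 RPKM and Irs2 at 7.29 RPKM, which overlapped too, then by Klhl24 at 5.99 and Foxo1 at 5.46 RPKM, which also overlapped. Pik3ip1 at 4.58, Igf1r at 2.97, Insr at 2.53 and Irs1 at 0.598 RPKM each lay apart from their neighbours. In the transgenic library Depp1 stood alone at 124.2 RPKM with Txnip at 67.4 RPKM, and Pik3ip1, at 10.96 RPKM, came next with Klhl24, at 10.6 RPKM, within its interval. Irs2 and Foxo3, at 6.97 and 6.50 RPKM, overlapped as did Insr and Igf1r, at 3.25 and 3.21 RPKM, while Foxo1, at 4.72 RPKM, and Irs1, at 0.327 RPKM, lay apart. Pik3ip1 stood below Foxo1 and Irs2 in the wild-type library and above both in the transgenic one. Pik3ip1 and Klhl24 were picked for more scaled reads in the transgenic library, so their rise in the order follows from that choice.

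The wider pathway between receptor and FOXO was close to equal in both libraries. Of 15 genes of PI3K, PDK1, AKT and mTORC2, none was called higher or lower, and their median log2 ratio was -0.13 beside 0.01 over all measured genes. Of all measured genes 7.78% were called higher and 5.89% lower. The ratios of these 15 genes ran from 0.708 for Mlst8, a subunit of the mTOR complexes, to 1.27 for Pik3ca, a catalytic subunit of PI3K. Akt1, the most abundant of them per length, was at 118.8 and 110.0 CPM, a ratio of 0.926 [0.872, 0.984]. Pik3c2a, a class II PI3K, had a ratio of 0.773 [0.703, 0.849], and Pik3r3, a regulatory subunit, 0.814 [0.714, 0.927].

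Among 12 measured receptors and docking proteins none was higher and Irs1 alone was lower, with a median of -0.16. Over all measured genes 7.78% were higher and 5.89% lower, and this list held 8.33% lower. Irs3, with 2 and 0 reads, and Irs4, with 0 and 5 reads, were too low to be measured. Insrr, an orphan receptor related to the insulin receptor and the most abundant of the list per length, had 441.2 and 358.3 CPM, a ratio of 0.812 [0.786, 0.839]. The adaptor gene Shc1 had 2601 and 1488 reads, a ratio of 0.675 [0.633, 0.719], just inside 1.5-fold.

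Among 14 AKT substrates and genes of the mTORC1 arm none was higher and 1 was lower, with a median of -0.02. The share lower was 7.14%, near the 5.89% of all measured genes, of which 7.78% were higher. The lower gene was Tbc1d4, a GTPase-activating protein that AKT inhibits, with 229 and 125 reads and a ratio of 0.644 [0.514, 0.804]. Rheb, the GTPase that activates mTORC1, was at 0.756 [0.723, 0.791] and Gsk3a, a kinase that AKT inhibits, at 0.762 [0.694, 0.835]. Tbc1d1 was at 0.844 [0.787, 0.904], and the ribosomal protein gene Rps6, the most abundant per length, at 1.05 [1.02, 1.08].

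Among 15 brakes of insulin signalling Pik3ip1 was the only one called higher and 2 were lower, with a median of -0.03. These are 6.67% higher and 13.3% lower, beside 7.78% and 5.89% of all measured genes. Inpp5d, a phosphatase of PI3K lipids known mainly from blood cells, had 82 and 29 reads, a ratio of 0.417 [0.263, 0.644]. Socs1, an inhibitor of cytokine and insulin receptor signalling, had 172 and 91 reads, a ratio of 0.624 [0.479, 0.809]. Phlpp1, a phosphatase of AKT, was at 0.802 [0.674, 0.952], and Trib3, an AKT-binding pseudokinase and the most abundant per length, at 0.844 [0.774, 0.920]. The B, T and plasma cell markers, whose part in the values of Inpp5d and Socs1 was not tested, summed to 66.8 CPM without and 137.9 CPM with the transgene, with 3 of 8 measured markers higher (Ighm, Igkc and Jchain) and none lower. Without these 3 immunoglobulin-related genes the markers summed to 45.7 and 35.8 CPM, lower in the transgenic library, most of it from Cd79a at 41.1 and 31.5 CPM. The macrophage markers summed to 103.0 and 119.8 CPM, with 1 of 8 higher.

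Of the ligands, both insulin genes were less abundant in the transgenic library and Igf1 more abundant. Ins2, the most abundant gene of the list, was at 0.800 [0.799, 0.801] and Ins1 at 0.476 [0.474, 0.478], and these close paralogs may share reads. Of 8 measured ligands and binding proteins, 2 were higher and 1, Ins1, lower, with a median of 0.12. The higher ones were Igfbp4, an IGF-binding protein, with 49 and 89 reads and a ratio of 2.14 [1.495, 3.10], and Igf1, with 12 and 39 reads and a ratio of 3.83 [1.97, 8.04], the latter named after its value was seen. Igfbp7 was at 1.13 [1.09, 1.18]. The fibroblast, stellate and mural cell markers summed to 106.3 and 141.5 CPM. Of these markers 5 of 10 were higher and 1 lower, beside 7.78% and 5.89% of all measured genes. Their part in the values of Igf1 and Igfbp4 was not tested.

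Among the 4 FOXO genes, none was called, beside 7.78% higher and 5.89% lower of all measured genes. Foxo6 had the most reads per length, at 15.7 and 11.1 RPKM, and a ratio of 0.705 [0.629, 0.789]. Foxo4 had 368 and 392 reads and a ratio of 1.26 [1.09, 1.45], on the other side of 1 from Foxo1, Foxo3 and Foxo6. Summed over the 4 genes, the levels were 163.9 and 142.0 CPM.

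**Figure D3:**
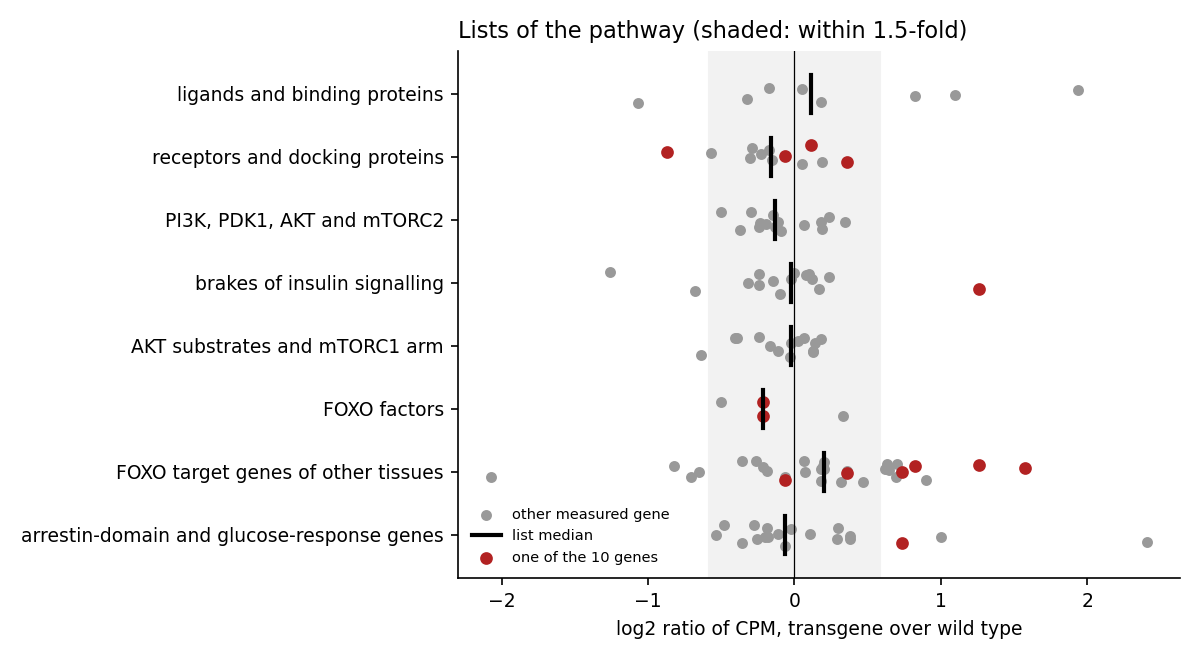
The log2 ratio of CPM, transgenic over wild type, for each gene with at least 10 reads in 8 lists, with the 10 genes in red, a black bar for the list median and shading for the range within 1.5-fold. All 15 genes of PI3K, PDK1, AKT and mTORC2 lie inside the shading, while FOXO target genes lie on both sides of it, 11 above and 4 below, with a median of 0.20.

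FOXO target genes known from other tissues were found on both sides of the rule. Of 37 such genes 32 were measured, of which 11 were higher, 4 lower and 17 neither, beside 7.78% higher and 5.89% lower among all measured genes, and their median log2 ratio was 0.20. The list holds the 4 picked genes, Insr and Irs2. Without the 10 genes, 7 of 26 were higher and 4 lower, with a median of 0.19. No test was made of this list, and its genes were compiled with earlier results of these data known.

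The 7 other genes on the higher side have varied known roles. Cat, which encodes the peroxide-degrading enzyme catalase, had 64 and 101 reads, a ratio of 1.86 [1.35, 2.59]. The other 6 were named after their values were seen. Cdkn1b, the cyclin-dependent kinase inhibitor p27, had 1644 and 2309 reads, or 81.7 and 135.4 CPM, a ratio of 1.66 [1.55, 1.77]. Ccng2, an atypical cyclin of growth arrest, had 1412 and 1940 reads, or 70.2 and 113.7 CPM, a ratio of 1.62 [1.51, 1.74]. Near these 2 ratios lay those of Txnip and Klhl24, which were picked for being higher. Likeness between genes was not tested. Sesn1, a sestrin that restrains mTORC1, had 1044 and 1361 reads and a ratio of 1.54 [1.42, 1.67], while its relatives Sesn2, at 0.955 [0.883, 1.03], and Sesn3, at 1.14 [1.05, 1.23], were not called. Mxi1, an antagonist of MYC, was at 1.57 [1.37, 1.80], the receptor gene Erbb3 at 1.63 [1.28, 2.07] and Bbc3, a pro-apoptotic BCL2 family gene, at 1.55 [1.34, 1.79].

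On the lower side, Ppargc1a, a coactivator of mitochondrial and gluconeogenic genes, was the farthest from 1, with 446 and 90 reads and a ratio of 0.238 [0.188, 0.299]. The other 3 were named after their values were seen: the stress genes Gadd45a, at 0.567 [0.5001, 0.641], and Gadd45b, at 0.636 [0.604, 0.670], and the transcriptional repressor gene Bcl6, at 0.613 [0.480, 0.779]. The autophagy gene Gabarapl1, the most abundant of the list per length, was at 1.15 [1.11, 1.19]. Of the list, 4 targets known from liver or muscle were at or near 0: G6pc and Trim63 had 0 reads in both libraries, Pck1 had 0 and 1, and Igfbp1 had 1 and 0. Others known from muscle were well above that, with 822 and 892 reads for Fbxo32, a ubiquitin ligase gene, and 197 and 231 for Pdk4, a kinase that restrains pyruvate oxidation. A count of 0 is compatible with up to 3 expected reads by a 1-sided 95% bound.

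**Figure D4:**
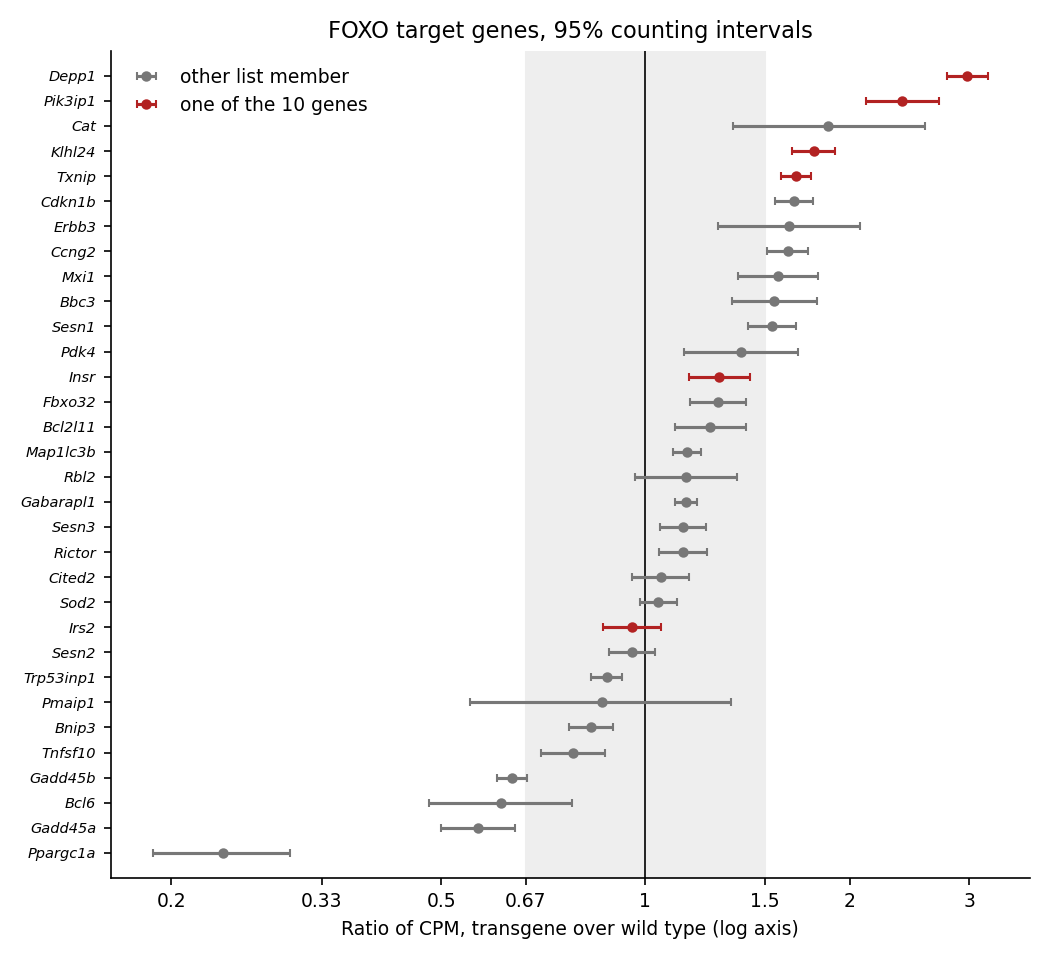
Ratios of CPM, transgenic over wild type, on a log axis for the 32 measured FOXO target genes, with bars for the 95% counting interval, shading for the range within 1.5-fold and the 10 genes in red. Values run from 0.238 for Ppargc1a to 2.98 for Depp1, with 11 genes called higher and 4 lower.

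Most relatives of Txnip and genes of the glucose response were not called. Their median was -0.07, and of 19 genes 3 were higher and none was lower, beside 7.78% and 5.89% of all measured genes. Beside Txnip the higher genes included Thrsp, with 23 and 39 reads, named after its value was seen. Arrdc4, the arrestin-domain gene that is regulated by glucose together with Txnip, had 458 and 506 reads and a ratio of 1.30 [1.15, 1.48], with an interval below that of Txnip. Mlxipl, which encodes the glucose-responsive factor ChREBP, had the most reads per length over both libraries together, and its ratio was 0.880 [0.849, 0.912]. It led in the wild-type library at 62.4 RPKM. In the transgenic library it was at 54.9 RPKM, below Txnip at 67.4 and the thioredoxin gene Txn1 at 67.2 RPKM. Klf10 was at 0.689 [0.627, 0.757] and the thioredoxin reductase gene Txnrd2 at 0.716 [0.554, 0.921].

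The cell types of the islet and its surroundings differed between the libraries, and their part in the values above was not tested. In bulk RNA, fewer cells of a type and less RNA per cell cannot be told apart. The counts of called markers below stand beside 7.78% higher and 5.89% lower of all measured genes. Beta cell markers were present, with Ins2 at 199302 and 159492 CPM; 8 of 12 were lower and none higher, and their sum was 256102 CPM without and 194890 CPM with the transgene. Alpha cell markers summed to 19885 and 31480 CPM, with 4 of 8 higher, and markers of delta, gamma and epsilon cells to 6856 and 10000.0 CPM, with 1 of 7 higher. Acinar markers summed to 12920 and 56699 CPM, and all 18 were higher. Endothelial markers, none of 10 called, summed to 308.9 and 274.1 CPM, and red blood cell markers, with 4 of 5 higher, to 10.5 and 20.9 CPM. Of 9 ductal markers 3 were higher and 1 lower; their sum of 4029 and 2419 CPM came mostly from the keratin genes Krt8 and Krt18, and without these 2 it was 381 and 427 CPM. Of the defining adipocyte markers, Lep had 0 reads in both libraries and Adipoq and Plin1 had 0 and 1. The adipocyte list summed to 55.2 and 91.7 CPM, nearly all of it from Lpl. When hormone genes and acinar markers were left out of the scaling, the ratios of the 10 genes kept their side of the 1.5-fold rule. Under TMM the scale of the transgenic over the wild-type library hardly moved, from 0.8478 to 0.8474. This concerns scaling alone and cannot account for a change in the mix of cells.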

How the data were processed

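The authors deposited a table of raw counts with 54532 Ensembl gene IDs and 1 column each for the wild-type and the transgenic library. Per the labels' protocols, the TruSeq RNA libraries started from 1 microgram of total RNA. No source used here names the aligner, the counter or the build. Of the IDs, 54409 were found in GENCODE M21 (GRCm38), 98.3% of them with the same start and end, so coordinates were treated as GRCm38. A second deposited table gives, for the genes the authors list as different, a signal (counts over 1 constant for each library), the log2 fold change, the p-value and the adjusted p-value. DESeq2 1.10.1 is named in the submitters' processing notes; its use with 1 library per group is not described in those notes.

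Genes were kept at a minimum of 10 reads, summed over both libraries, and scaled by TMM (edgeR 4.0.16 in R 4.3.3; factors 0.987 and 1.01). One read equalled 0.0497 CPM (wild type) or 0.0586 CPM (transgenic). RPKM divided CPM by the gene length of the count table. Ratios had exact 95% Clopper-Pearson intervals on the transgenic share of a gene's reads (SciPy 1.17.1). Shares had exact binomial and levels exact Poisson intervals. Since reads here carry no molecular identifiers and can be copies, all intervals and the floor of 3 reads describe counting error alone. With 1 library per group there is no spread to test against, and groups were not tested. The steps were tested on simulated data.

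The 10 genes and all lists were chosen with earlier results of these data known. Beside the 10 genes and Brsk2, each pathway list was represented by its most abundant gene per length, by reads of both libraries together. Added to that gene were the 4 genes with the largest absolute log2 ratio among those with at least 100 reads. Other named genes were chosen after their values were seen. Alternatives were scaling by library totals, by upper quartile, by the size factors of DESeq2 1.42.0 and without hormone genes and acinar markers, restriction to protein-coding genes, changed fold rules and read minimums, and centring by gene length. Centring by GC content and gene length was added after seeing the data. Figures were drawn with matplotlib 3.10.9. Some genes of the lists are not reported here by name.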

Additional observations from a re-analysis of the deposited data

How the results depend on the processing

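No paired analysis was possible because each group had 1 library. Over 6 other scalings or gene sets and 2 centrings by 10 bins, the ratios of the 10 genes stayed within their counting intervals and on their side of the 1.5-fold rule. The ratio of Depp1 ran from 2.83 to 3.09, that of Irs1 from 0.545 to 0.566 and that of Txnip from 1.66 to 1.73. Irs2 ran from 0.952 to 1.01 and so crossed 1, as its interval allows. The same 11 FOXO target genes were higher under each of these settings. With a 2-fold rule 2 of the 10 genes were higher and 0 lower, and over all genes 755 were higher and 448 lower. With the smallest fold rule tried 2338 and 2197 of all genes were called, and 5 of the 10 genes were higher, since Insr passed it, and 1 was lower. When the interval bound was required to be past 1.5-fold, 438 and 361 of all genes and 0 of the 10 genes as lower were left, which ends the call of Irs1; fewer or more genes qualify under these rules by construction. Depth limits Irs1 most among the 10 genes, and the missing replicates limit every comparison.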
